A study of Eucalyptus globulus and Eucalyptus grandis with 36 samples.

Results

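The genes described here are the 984 that the authors listed as changed in stems of Eucalyptus grandis grown at 30 °C with elevated CO2, set against stems of the same species grown at 20 °C in ambient CO2. They were taken as every gene of the deposited table for that pair of groups, out of 11827 genes listed in any of the 8 deposited tables, which is 8.32%. Those tables cover both species of the study, and the E. globulus table for the same treatment alone holds 5445 genes. Shares of the genes listed in any table are therefore not shares within E. grandis. The study measured stem mRNA by RNA sequencing in E. grandis and E. globulus, with 36 samples in 12 groups of 3. The heat group with elevated CO2 was titled 30 °C, stood in a chamber at 33 to 35 °C and received 700 ppm CO2. The control group was titled 20 °C, stood at 22 to 24 °C and received ambient CO2, given as 390 ppm in the protocol and 400 ppm in the design text. Both groups were raised from clonal seed and entered the chambers at a height of about 25 cm, aged 6 months by the protocol, whereas the design text gives the plants' age as 35 days. They grew under red and blue diodes at 280 µmol photons per square metre and second for 10 h a day and stayed in their conditions for 35 days. Temperature and CO2 changed together, and with them the chamber, so their shares of any difference cannot be told apart in this pair of groups. Whether the 3 samples in each group came from different plants is not stated, nor is the time of day of harvest.

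The deposited table gives 1 normalised value per gene and group on a log2 scale with a floor of 0, not a value per sample. A value here is therefore the authors' group value, without SD, depth or replicate check, and a difference is the heat group minus the control group on that log2 scale. Every listed gene had passed the authors' moderated test at a corrected p of 0.05 and a fold of at least 2, so "rose" and "fell" below mean listed by that selection. Since stems are mixed tissue, more cells of a type and more RNA per cell cannot be told apart. Genes whose description is shared with a close copy may exchange reads, and how such reads were counted is not stated in the labels.

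When plants warm, unfolding proteins are bound by small heat shock proteins and refolded by ATP-driven chaperones of the HSP70, HSP60 and HSP101 families, while DnaJ proteins deliver substrates to HSP70. Heat shock factors are the transcription factors that bind the promoters of such genes. Green stem tissue also carries chloroplasts, and the plant clock sets daily rhythms of many of their genes.

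Of the 984 genes, 578 (58.7%) rose and 406 (41.3%) fell at 30 °C with elevated CO2. These are 4.89% and 3.43% of the genes listed in any table. The 58.7% and 41.3% are the shares to set beside each list's counts below. The median difference was 1.76 among the genes that rose, a 3.40-fold change, and -1.58 among those that fell, a 2.99-fold change. At least a 4-fold change was reached by 234 genes that rose (23.8% of the table) and 134 that fell (13.6%). At the far end the order turned round, with 24 genes higher and 30 lower by at least 16-fold. A further look at the floor showed 75 genes listed at 0 in the control and 11 listed at 0 in the heat group.

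**Figure D1:**
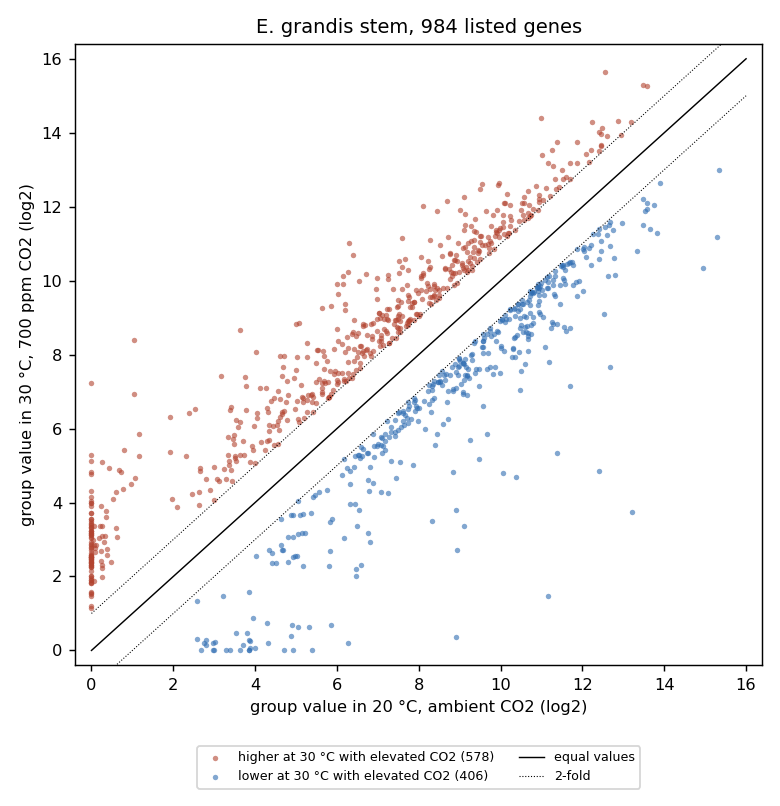
Group value of each of the 984 listed genes of E. grandis stem at 30 °C with 700 ppm CO2 (vertical axis, log2) against its value at 20 °C in ambient CO2 (horizontal axis, log2); dotted lines mark a 2-fold difference. The 578 genes that rose lie above the diagonal, with 75 of them in the column at 0 in the control, and the 406 that fell lie below it.

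The small heat shock proteins rose as a block. All 11 listed members were higher in the heat group, 9 of them by at least 4-fold. Their median difference was 3.37, against 1.76 among all listed genes that rose. These 11 are 22.4% of the 49 members listed in any table, against 8.32% for all genes. Of those 49, 40 are listed in E. globulus for the same treatment. Eucgr.J01980, an HSP20-like chaperone, had a value of 8.66 in the heat group and 3.62 in the control, a 32.9-fold rise. Eucgr.J01964 stood at 8.07 in the heat group and 4.03 in the control, and Eucgr.B02376 at 15.65 in the heat group and 12.56 in the control. That value of Eucgr.B02376 was the highest that any listed gene reached in the heat group. The smallest rises were those of Eucgr.F00998 (11.07 in the heat group, 9.74 in the control) and Eucgr.L02712 (8.59 in the heat group, 7.23 in the control). Outside the list, Eucgr.A01949, described as an alpha-crystallin domain gene and named after its value was seen, fell to 7.03 in the heat group, against 10.47 in the control.

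Among the large chaperones 7 of 9 rose (77.8%, beside 58.7% over the table). The 3 described as heat shock protein 70 gained most: Eucgr.L01770 had 9.25 in the heat group and 5.63 in the control (12.3-fold), Eucgr.J03127 had 11.88 in the heat group and 8.44 in the control (10.8-fold), and Eucgr.H03518 had 11.10 in the heat group and 8.28 in the control (7.05-fold). HSP101, the disaggregase that pulls proteins out of aggregates, rose 5.32-fold (Eucgr.H01528, 7.36 in the heat group and 4.95 in the control). Of the chaperonin and RbcX genes, which serve folding and assembly in the chloroplast and elsewhere, 2 rose and 2 fell. Eucgr.F01711 rose to 12.65 in the heat group, against 9.96 in the control, whereas its family member Eucgr.G02400 fell to 2.02, against 6.47 in the control. The RbcX gene Eucgr.J00766 rose 3.25-fold, and the RbcX gene Eucgr.E03993 fell 74.0-fold (2.73 in the heat group, 8.94 in the control).

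DnaJ co-chaperones moved the other way. All 7 listed members fell, beside 41.3% over the table, 6 of them by at least 4-fold. Their median difference was -2.59. Eucgr.G02581 was at 5.34 in the heat group and 11.39 in the control, a 66.3-fold fall, and Eucgr.J02231 was at 4.80 in the heat group and 10.07 in the control. The 4 listed heat shock factors also fell, by 1.06 to 1.88 on the log2 scale. These were a pair described as factor A6B (Eucgr.H03412 and Eucgr.K03325), B2A (Eucgr.A02804) and A8 (Eucgr.B02689). Of the other co-chaperones 1 rose and 1 fell. BAG3, a co-chaperone of HSP70, rose 2.97-fold (Eucgr.J01901, 9.40 in the heat group and 7.84 in the control), and rotamase cyclophilin 2 fell 2.34-fold (Eucgr.L02398, 7.30 in the heat group and 8.52 in the control). No gene of the list for folding in the endoplasmic reticulum was in the table.

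**Figure D2:**
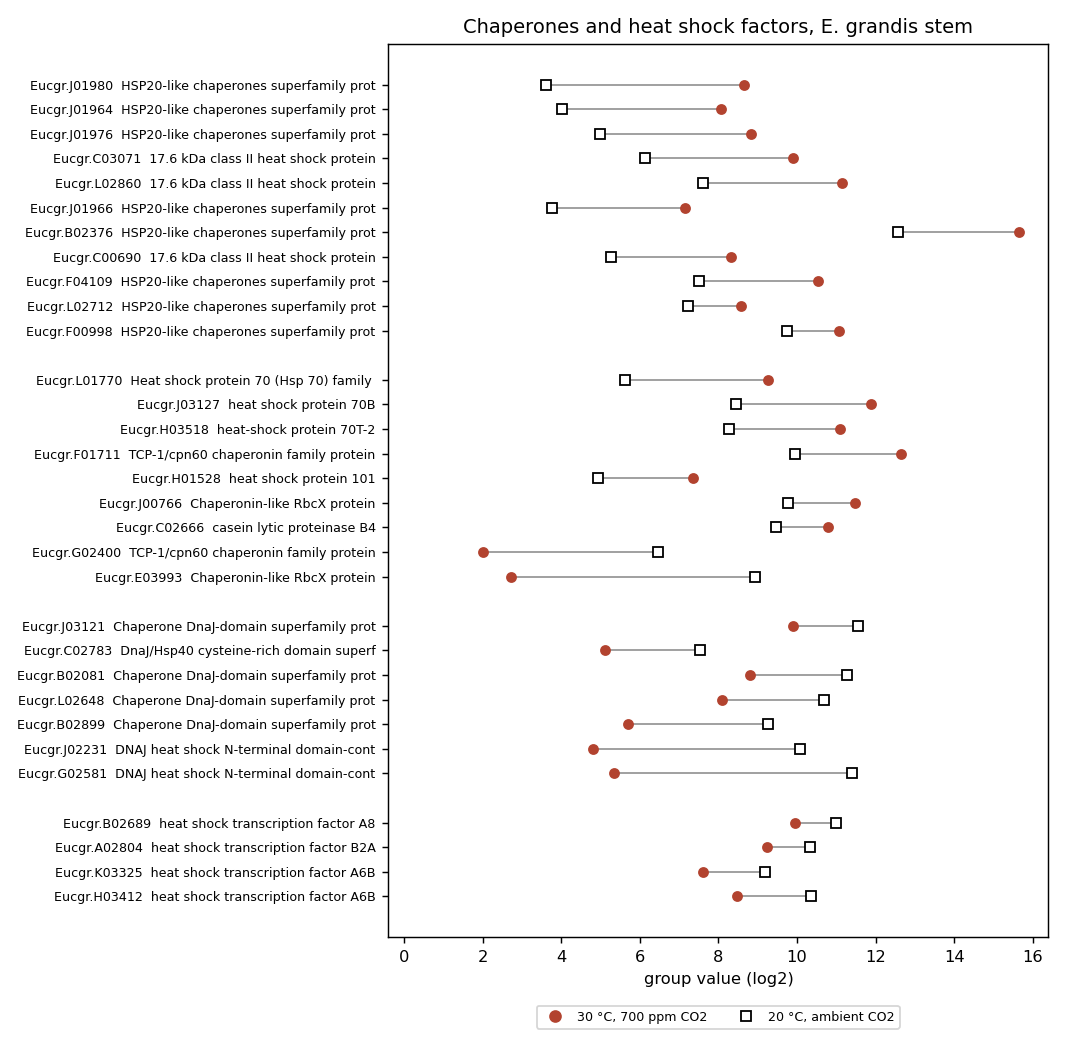
Group values (log2) of the listed small heat shock proteins, large chaperones, DnaJ co-chaperones and heat shock factors, from top to bottom, at 30 °C with 700 ppm CO2 (filled circles) and at 20 °C in ambient CO2 (open squares). All 11 small heat shock proteins lie to the right of their control, and all 7 DnaJ genes and 4 heat shock factors to the left.

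Genes of the light-harvesting apparatus were higher. In the photosynthesis list 12 of 14 genes rose (85.7%, beside 58.7% over the table), with a median difference of 1.65. Photosystem II subunit R (Eucgr.F01447), a protein of the water-splitting side of photosystem II, had 14.39 in the heat group and 10.98 in the control, a 10.6-fold rise. The antenna protein Lhcb3 (Eucgr.F01077) had 12.58 in the heat group and 9.95 in the control. Adjacent copies of chlorophyll A/B binding protein 1, Eucgr.D00319 and Eucgr.D00320, rose 4.33-fold and 3.97-fold, and as neighbours with 1 description they may share reads. A chlorophyll A-B binding family gene, Eucgr.B01007, rose most in the list, to 12.03 in the heat group, against 8.11 in the control. Like the 12 that rose, the 2 that fell are known here by description only. Eucgr.K01496, described as NDH-dependent cyclic electron flow 5, had 2.32 in the heat group and 6.60 in the control. Eucgr.D01001, described as photosynthetic electron transfer B, had 2.40 in the heat group and 4.79 in the control.

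Pigment synthesis rose with them. All 8 genes of the list for chlorophyll, carotenoids and the plastid isoprenoid precursors were higher, with a median difference of 1.26. The list was assembled after the values were seen. It includes Eucgr.I01479, described as a chloroplast signal recognition particle component, so its members do not all make pigments. The H subunit of magnesium chelatase, which commits protoporphyrin to chlorophyll, had 13.53 in the heat group and 11.25 in the control (Eucgr.A02348, 4.87-fold). Phytoene synthase, the entry enzyme of the carotenoid pathway, had 12.98 in the heat group and 11.50 in the control (Eucgr.F02913).

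The clock and light list had a large share of its members in the table. The morning and evening loops of the clock repress each other, and cycling DOF factors repress CONSTANS until FKF1 marks them for breakdown in Arabidopsis. In the clock and light list 8 of 12 genes rose (66.7%, near the 58.7% of the whole table). These 12 are 34.3% of the 35 members listed in any table, against 8.32% for all genes. Of the 12, 4 rose and 1 fell by at least 4-fold, and the differences ran from -2.50 to 3.45. Both cycling DOF factor 2 genes rose, Eucgr.I01947 to 12.15 in the heat group, against 8.70 in the control, and Eucgr.G02493 to 10.57, against 7.66 in the control. Cryptochrome 3, of the cryptochrome and photolyase family, rose 4.49-fold (Eucgr.C03997). Pseudo-response regulator 5, a clock repressor, fell 5.67-fold (Eucgr.A01405, 10.13 in the heat group and 12.63 in the control).

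Outside that list, 4 genes chosen after their values were seen fell further. They include FKF1 and cold regulated gene 27, so the counts and range of the list do not cover all clock and day-length genes. The gene described as CCR-like (Eucgr.G01934) had 3.73 in the heat group and 13.22 in the control, a 719-fold difference. Maternal effect embryo arrest 59 (Eucgr.J01950) had 4.86 in the heat group and 12.39 in the control. Cold regulated gene 27 (Eucgr.F00223), a repressor tied to the clock in Arabidopsis, had 4.69 in the heat group and 10.38 in the control. FKF1 itself, the flavin-binding, kelch repeat, F-box protein (Eucgr.G02098), had 7.67 in the heat group and 12.66 in the control. All 4 belong to the 10 described genes that fell most with both values above 0. The other 6 of those 10 were the RbcX gene Eucgr.E03993, the DnaJ genes Eucgr.G02581 and Eucgr.J02231, a DUF506 gene (Eucgr.K01035), AGAMOUS-like 16 (Eucgr.K02711) and a RING/U-box gene (Eucgr.I02211).

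Both listed thiamine synthesis genes, a list also made after the values were seen, fell. The gene described as thiaminC (Eucgr.B02273) had 7.15 in the heat group and 11.69 in the control, and the thiazole biosynthetic enzyme of the chloroplast (Eucgr.F03433) had 11.19 in the heat group and 15.28 in the control. Starch breakdown genes fell as well: Eucgr.B02278, alpha-glucan phosphorylase 2, fell 6.22-fold, and Eucgr.B03166, of glycosyl transferase family 35, fell 14.2-fold. All 6 genes of the sucrose, starch and trehalose list were lower in the heat group, with a median difference of -2.81. The list includes inhibitors of invertase and of fructosidase, so its members do not all break down sugar polymers. Dormancy-associated protein-like 1 (Eucgr.E03257) was at 10.33 in the heat group and 14.95 in the control.

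**Figure D3:**
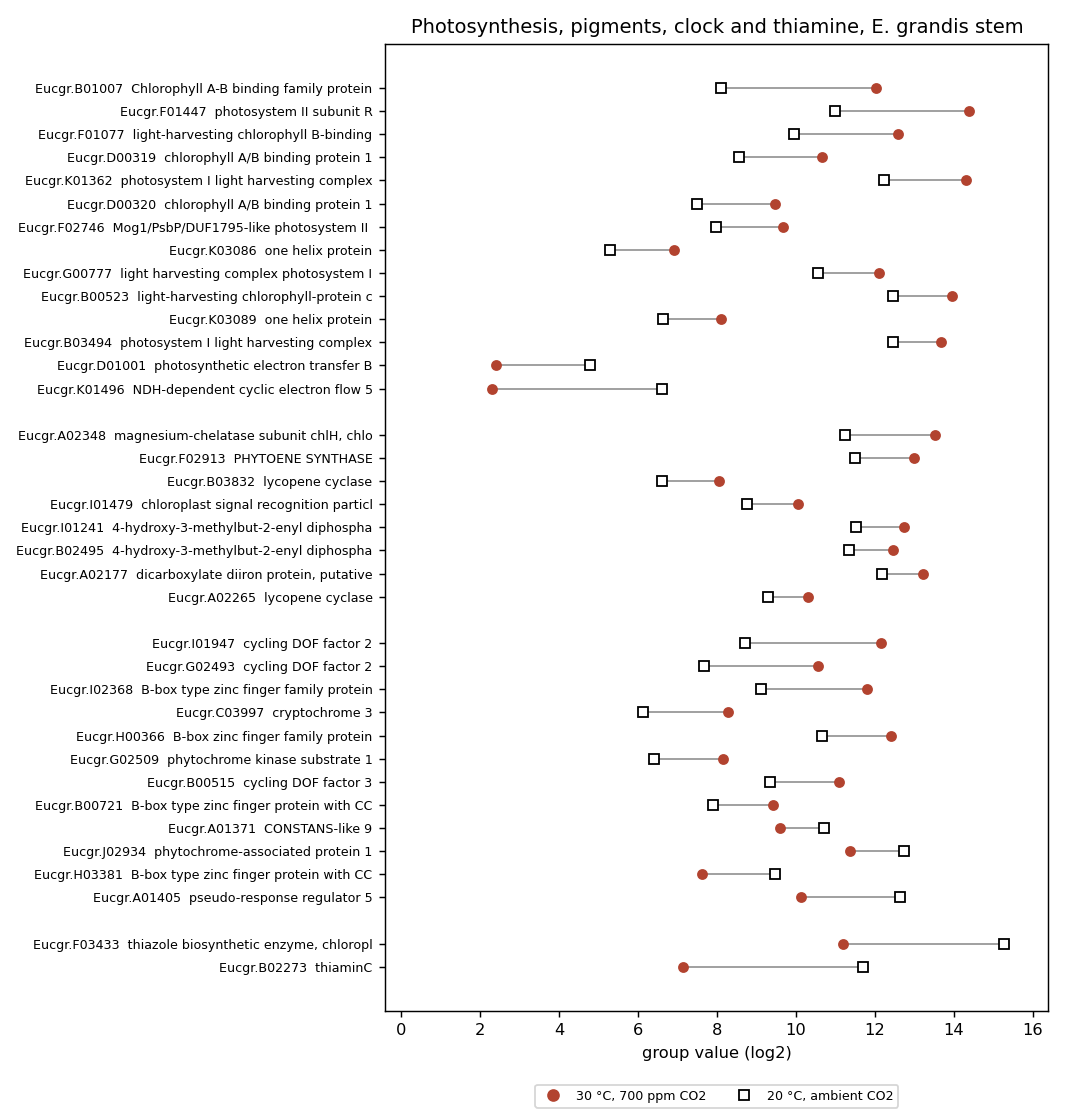
Group values (log2) of listed genes for photosynthesis, pigment synthesis, clock and light, and thiamine synthesis, from top to bottom, at 30 °C with 700 ppm CO2 (filled circles) and at 20 °C in ambient CO2 (open squares). All 8 genes of the pigment list lie to the right of their control and both thiamine genes lie far to the left.

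Ribosomal proteins, the structural parts of the translation machinery, were mostly lower. Of 14 listed members 13 fell, beside 41.3% over the table, with a median difference of -1.12. The 14 are 33.3% of the 42 members listed in any table, against 8.32% for all genes. Most of these changes were close to the 2-fold limit of the selection: apart from the putative 30S ribosomal protein Eucgr.A01406 (7.56 in the heat group, 10.49 in the control), the falls ran from 1.00 to 1.25 on the log2 scale. The 1 that rose was Eucgr.K02665, of the L12 and Clp adaptor family, at 10.60 in the heat group and 9.49 in the control. As a limit of the table, 60 of the 984 genes lay under 2.1-fold, where a small change of the selection would remove them.

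Wall genes, the subject of the study's title, were few. The monolignol list, the pathway to lignin's building blocks, had 6 genes in the table, 6.98% of its members listed in any table, against 8.32% for all genes. Of these 6, 4 rose (66.7%, beside 58.7% over the table). Cinnamoyl-CoA reductase 1 had 13.17 in the heat group and 11.88 in the control (Eucgr.J03114), and a cinnamyl-alcohol dehydrogenase had 6.49 in the heat group and 4.69 in the control (Eucgr.D00468). O-methyltransferase 1 (Eucgr.A01392) fell to 0.07 in the heat group, against 3.87 in the control, and an O-methyltransferase family gene (Eucgr.A01884) was listed at 0 in the heat group and at 4.92 in the control. Both laccase 14 genes were listed in opposite directions, Eucgr.F04162 3.31-fold higher and Eucgr.E03932 2.33-fold lower. Both listed class III peroxidases fell (Eucgr.I01176 8.83-fold, Eucgr.A01385 4.28-fold).

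Wall modification gave mixed directions. Xyloglucan endotransglycosylases, which cut and rejoin the tethers between cellulose fibrils, split into 2 that rose and 2 that fell, the largest change being the fall of Eucgr.C02203 to 3.19 in the heat group, against 6.77 in the control. Of 5 pectin genes 4 fell, including a pectin acetylesterase (Eucgr.B02195, 9.97 in the heat group and 11.85 in the control). In the list of cellulose and hemicellulose synthesis, 2 rose and 2 fell. The list of wall regulators split evenly: MYB83 (Eucgr.G03385) and MYB61 (Eucgr.K00555) rose 2.11-fold and 2.72-fold, and the NAC genes described as NAC58 (Eucgr.B00724) and NAC2 (Eucgr.F01091) fell 2.99-fold and 2.03-fold. No xylem marker was in the table, and of the phloem markers only phloem protein 2-A1 was (Eucgr.J02793, 4.85 in the heat group and 2.65 in the control). Of the cork and epidermis markers 7 of 8 rose, but 5 of those 7 carry only the family description HXXXD-type acyl-transferase. The part of tissue make-up in these wall values was not tested.

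**Figure D4:**
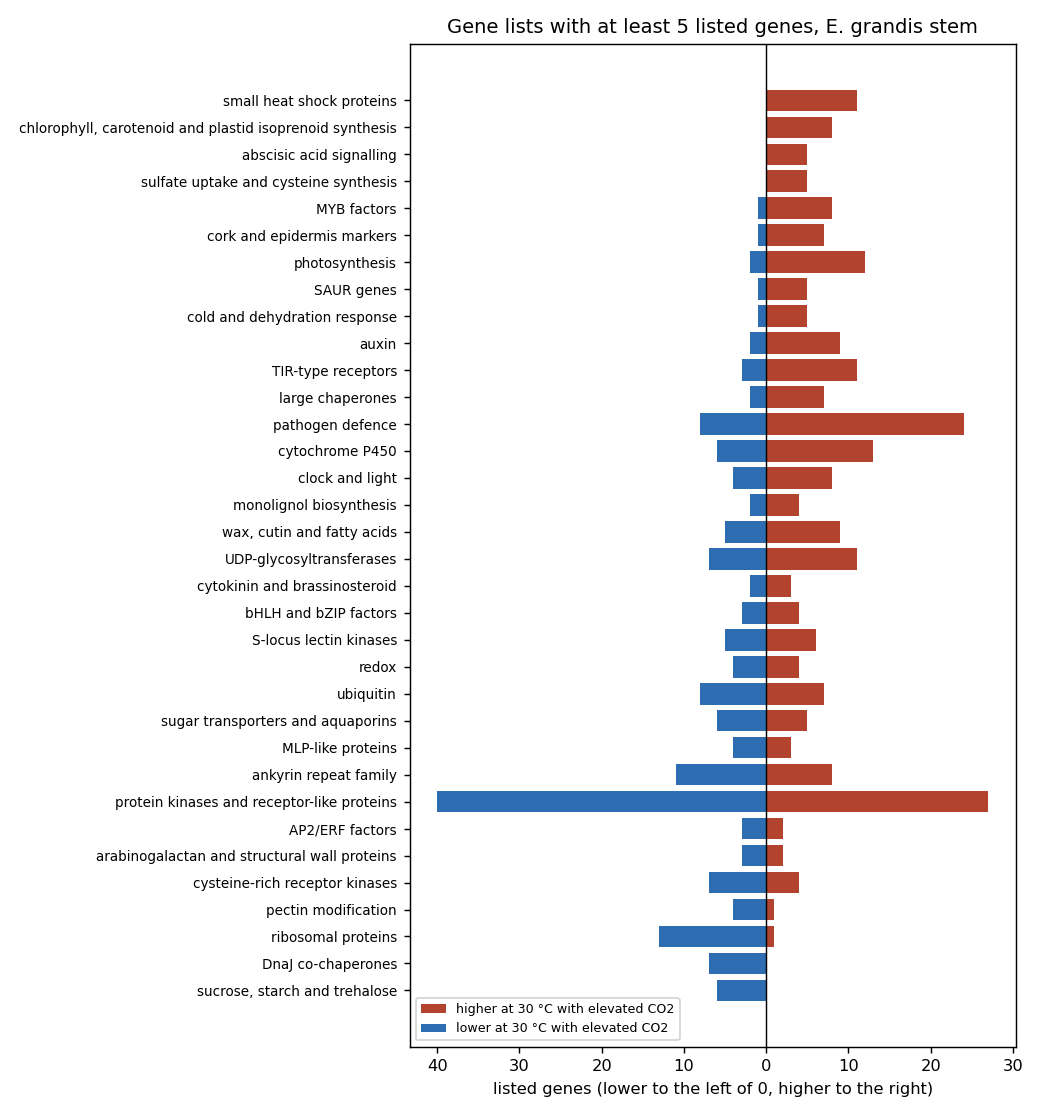
Number of genes that rose (right of 0) and fell (left of 0) at 30 °C with elevated CO2 in each gene list with at least 5 genes in the table, ordered by the share that rose. Small heat shock proteins, with 11 higher, stand at the top, and sucrose, starch and trehalose, with 6 lower, at the bottom.

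Auxin and abscisic acid genes were mostly higher. For auxin, the growth hormone that acts through Aux/IAA repressors, 9 of 11 genes rose (81.8%, beside 58.7% over the table). Eucgr.K03314, an Aux/IAA regulator, had 8.96 in the heat group and 6.97 in the control, and indole-3-acetic acid inducible 14 (Eucgr.H03170) had 10.83 in the heat group and 9.44 in the control. SAUR genes, rapid auxin responders, made up 5 of the 9, and 4 of these 5 had a control value under 0.1, so their rises start at the floor. All 5 listed genes of abscisic acid signalling, a list made after the values were seen, rose by 1.03 to 1.32. They include 2 genes for ABRE-binding factor 3 (Eucgr.G01436, Eucgr.I01145), a transcription factor of the drought hormone, and protein phosphatase 2CA (Eucgr.G02960), a brake on the same pathway.

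Among transcription factors, 8 of 9 MYB genes rose (88.9%, beside 58.7% over the table). Only 1 of the 9 was left without genes whose higher group value lay under 8.82, the median of that value. In E. globulus 19 of 34 listed MYB genes rose. Both genes described as MYB113, a regulator of anthocyanin in Arabidopsis, rose: Eucgr.F02842 had 7.93 in the heat group and 5.01 in the control, and its neighbour Eucgr.F02843 had 2.78 in the heat group and 0.09 in the control. All 4 listed NAC genes fell, by 1.02 to 1.58. C-repeat-binding factor 4, of a family known for cold and drought responses, rose 4.49-fold (Eucgr.A02832, 9.87 in the heat group and 7.70 in the control). AGAMOUS-like 16, a MADS-box gene, fell to 0.69 in the heat group, against 5.86 in the control (Eucgr.K02711).

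Of the defence genes 24 of 32 rose (75.0%, beside 58.7% over the table). All 4 genes for osmotin 34, an antifungal protein also known from osmotic stress, rose by at least 4-fold. The largest rise was that of Eucgr.L03623, with 6.41 in the heat group and 2.37 in the control, and Eucgr.H03863 had 10.14 in the heat group and 6.14 in the control. TIR-type immune receptors, a list made after the values were seen, rose in 11 of 14 cases (78.6%, beside 58.7% over the table). These rises were mostly under 4-fold. Only 2 of the 14 were left without genes whose higher group value lay under 8.82, and their median difference was 0.03. In E. globulus 18 of 37 listed TIR-type receptors rose. The MLP-like genes split, with 3 that rose (Eucgr.A00141 25.9-fold, the largest) and 4 that fell by 2.27 to 2.52. Protein kinases and receptor-like proteins were 27 higher and 40 lower, but at 4-fold the order turned, with 15 higher and 9 lower. Cysteine-rich receptor kinases, a part of that list picked after the values were seen, fell in 7 of 11 cases, beside 41.3% over the table. In E. globulus 39 of 41 listed cysteine-rich receptor kinases rose, among them the 2 also listed in E. grandis. The largest rise of any described gene with both values above 0 was that of a receptor-like kinase-related gene, Eucgr.A01726, at 8.41 in the heat group and 1.03 in the control.

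Sulfur and specialised metabolism completed the described genes. All 5 genes for sulfate uptake and cysteine synthesis, a list made after the values were seen, rose, led by sulfate transporter 3;4 (Eucgr.J02996, 11.18 in the heat group and 8.70 in the control) and serine acetyltransferase 3;2 (Eucgr.J02527, 9.77 in the heat group and 7.60 in the control). Cytochrome P450 genes, oxidases of specialised metabolism, rose in 13 of 19 cases (68.4%) and UDP-glycosyltransferases in 11 of 18 (61.1%), both near the 58.7% of the whole table. At 4-fold the P450 genes turned, with 4 higher and 5 lower. Among the UDP-glycosyltransferases, Eucgr.G02440 had 5.10 in the heat group and 0.27 in the control. The organic cation/carnitine transporter 1 gene (Eucgr.K02307) had 10.69 in the heat group and 6.40 in the control.

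Genes at the floor were mostly low in the other group too. The 75 genes listed at 0 in the control had a median of 2.73 in the heat group and a highest value of 7.24, that of the undescribed Eucgr.L00953. An NmrA-like gene (Eucgr.L00740) reached 5.28 and a Stig1 family gene (Eucgr.E04008) 5.14 in the heat group. All 4 listed glutamate receptors were among these 75, at 1.95 to 4.76 in the heat group. The 11 genes listed at 0 in the heat group had 2.69 to 5.40 in the control, with the exostosin gene Eucgr.A01382 the highest. The largest change of all genes was that of undescribed Eucgr.A02802, at 1.48 in the heat group and 11.17 in the control. Its neighbour by number, Eucgr.A02803, had 0.36 in the heat group and 8.91 in the control, and Eucgr.A02801 on the other side fell by 4.82 on the log2 scale.

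A group value at 30 °C in ambient CO2 was found for 95 of the 984 genes (9.65%), those also listed in the authors' table of 3 temperatures, of whose 547 genes they are 17.4%. The genes come from separate tables, but a group's value was equal in every table that lists it. At 30 °C, elevated CO2 differed from ambient CO2 by at least 1 on the log2 scale in 63 of these 95, higher in 29 (30.5%) and lower in 34 (35.8%), with no test of that difference. The heat values that chose these genes enter this difference too, so it leans the way of the selection: of the 50 genes that rose against the control 29 were above 30 °C in ambient CO2 and 0 below by that much, and of the 45 that fell 34 were below and 0 above. The counts are therefore no measure of a CO2 effect. Eucgr.J01950 had 4.86 at 30 °C with elevated CO2, 11.63 at 30 °C in ambient CO2 and 12.39 in the control. FKF1 had 7.67 at 30 °C with elevated CO2, 12.89 at 30 °C in ambient CO2 and 12.66 in the control. The small heat shock protein Eucgr.L02712 had 8.59 at 30 °C with elevated CO2, 6.06 at 30 °C in ambient CO2 and 7.23 in the control. Both comparisons with the control use the same control samples.

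A value at 10 °C with elevated CO2 was found for 241 genes (24.5%), from a table that shares the control. Between the groups in elevated CO2, 57 of these genes were at least 1 higher at 30 °C (23.7%) and 26 at least 1 lower (10.8%), and 158 lay under 1 apart. Here too the heat values that chose the genes enter the difference. Cycling DOF factor 2 (Eucgr.G02493) had 10.57 at 30 °C and 9.56 at 10 °C with elevated CO2, and 7.66 in the control. MLP-like protein 328 (Eucgr.B02916) had 9.76 at 30 °C and 3.39 at 10 °C with elevated CO2, and 7.37 in the control.

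E. globulus, measured against its own control at 20 °C, had 5445 genes listed for the same treatment, 64.9% of them higher. It shares no samples with E. grandis. Of the 984 genes of E. grandis 425 (43.2%) stood in both tables, which is 7.81% of the E. globulus genes. The E. globulus table held 5445 of the 11827 genes listed in any table, a share close to that 43.2%. The size of the overlap is therefore not read as sharing between the species. In 392 of the 425 the direction was the same, 220 higher and 172 lower in both species, and in 33 it was opposite. Small heat shock proteins rose in both species in 10 of 10 shared genes, with a median difference of 4.94 in E. globulus. The shared DnaJ genes fell in 5 of 5, but of all 22 DnaJ genes listed in E. globulus 12 rose and 10 fell, with a median difference of 1.14. None of the 14 ribosomal proteins of E. grandis was listed in E. globulus, where 15 of 16 listed ribosomal proteins rose. All 4 listed heat shock factors fell in E. grandis, whereas 12 of 14 genes of the list of heat shock factors and co-factors rose in E. globulus, and 1 gene, Eucgr.H03412, fell in both. These lists hold different genes in each species, and the difference between species was not tested.

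**Figure D5:**
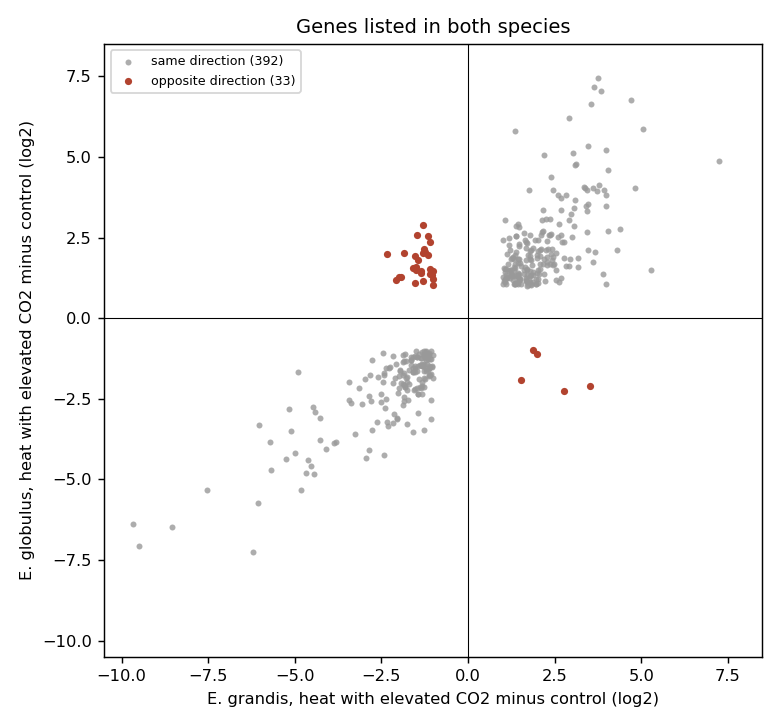
Difference between heat with elevated CO2 and control (log2) in E. globulus (vertical axis) against that in E. grandis (horizontal axis) for the 425 genes listed in both species. Grey points mark 392 genes with the same direction and red points 33 with opposite directions, 28 of them lower in E. grandis and higher in E. globulus.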

How the data were processed

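CTAB-extracted stem RNA was sequenced on Illumina libraries, per the labels' protocols. The submitters' processing notes name Bowtie2 and DESeq, with neither version nor role. The genome build and the counting rule were not given in the sources used here. Samples were grouped by title. The deposited group values are log2 values normalised by the authors, with a floor of 0, and each table holds genes passing a moderated test at a corrected p of 0.05 and a fold of at least 2, per the file headers. The deposited log2 fold change equalled the difference of group values in 984 of 984 genes (tolerance 0.0001), the deposited absolute fold, a ratio, its power of 2 in 984 (tolerance 0.001), and 8144 of 8144 values in more than 1 table were equal. The deposited signed fold, scored negative for a fall, was not used. Depth behind each value is unknown.

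The planned comparison was computed as the difference of group values with pandas 2.3.3 under Python 3.11.15, and the counting code was tested on simulated tables. No test was run, because no value per sample is given. The genes and lists were chosen with earlier results of these data known. There were 43 lists, matched by patterns on descriptions, and 12 more made after the values were seen. The patterns of 9 lists were corrected after the descriptions and values had been read: missed members were added to the small heat shock, large chaperone, DnaJ, photosynthesis and starch lists, and false matches were taken from the secondary wall, cell division, kinase and ubiquitin lists. Named genes were the 2 highest and 2 lowest of a list, the 10 highest and lowest described genes with both values above 0, and the 5 highest with a group at 0; others are named as examples chosen after their values were seen.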

Additional observations from a re-analysis of the deposited data

Results flagged for a closer look

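In 33 of the 425 genes listed in both species, heat with elevated CO2 went in opposite directions, 5 higher and 28 lower in E. grandis. The files give no values per sample, so the difference between species was not tested. The 8 genes with the widest gap, the E. grandis difference minus the E. globulus difference on the log2 scale, are given here. An HXXXD-type acyl-transferase (Eucgr.G00924) had 4.49 in the heat group and 0.96 in the control of E. grandis, and 0.44 in the heat group and 2.55 in the control of E. globulus, a gap of 5.64. A basic helix-loop-helix gene (Eucgr.B01226) had 7.42 in the heat group and 4.65 in the control of E. grandis, and 4.87 in the heat group and 7.11 in the control of E. globulus, a gap of 5.02. The other 6 fell in E. grandis and rose in E. globulus. Among them were the cysteine-rich receptor kinase 25 (Eucgr.E04141, gap -4.19), a subtilisin-like protease (Eucgr.H05125, gap -3.87) and glutathione S-transferase TAU 8 (Eucgr.L01417, gap -3.46), an enzyme of detoxification. The rest were an ankyrin repeat gene (Eucgr.K00053, gap -4.05) and the undescribed Eucgr.G01546 (gap -4.35) and Eucgr.B02698 (gap -3.68).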

How the results depend on the processing

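No paired analysis was possible because the files give 1 value per group, so neither a replicate block nor leaving out each replicate was run. At a 4-fold limit 234 genes rose and 134 fell. Without genes whose higher group value lay under 8.82, the median of that value, 264 rose and 228 fell. Both limits lessen the count by construction, and the median cut also takes out many genes far above the floor. Genes that rose stayed the larger share under every alternative run. In both species at 4-fold, 120 genes had the same direction and 2 the opposite. With the list patterns as first written, an alternative added after seeing the data, 21 of 34 lists with at least 5 genes leaned higher, as with the corrected patterns, and none of those 34 medians changed direction. Among smaller lists, the median of the secondary wall list was -1.02 with the first patterns and 0.03 with the corrected, and that of the cell division list 1.71 with the first and -1.12 with the corrected. The small heat shock list then held 8 genes, all higher, and the photosynthesis list 10 with 9 higher; kinases counted 31 higher and 50 lower with calcium genes included, and the cell division list, 1 higher and 2 lower as corrected, counted 4 higher and 2 lower. At 4-fold the median difference turned round for monolignol genes (-3.80), structural wall proteins (4.03, 1 gene left) and cytochrome P450 (-2.35). It also turned for sugar transporters and aquaporins (2.15), AP2/ERF factors (2.17) and protein kinases (2.31). Without genes at 0 it turned for S-locus kinases (-1.38). For cytokinin and brassinosteroid (-0.0102, 4 genes) and bHLH and bZIP factors (-0.0659, 6 genes) it then lay between members that rose and members that fell. No direction is read from those medians. Without genes under that median of 8.82 it turned for cytokinin and brassinosteroid (-1.54), SAUR genes (-1.78, 1 gene left) and S-locus kinases (-1.39). The causes were not tested. Depth is unknown, so low values carry an error that cannot be given.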

Other observations

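Neighbouring genes were compared by direction, without a test. By the end positions in the file, 55 neighbouring pairs of the 984 genes lay within 20 kb, and 44 of them (80.0%) had the same direction, against 514 of 923 neighbouring pairs farther apart (55.7%). All 17 close pairs that also share a description had the same direction, as had 27 of the 38 close pairs with other descriptions. Sharing of reads between close copies was not tested. The HSP20-like pairs Eucgr.J01964 with Eucgr.J01966 and Eucgr.J01976 with Eucgr.J01980 rose, and 4 NAD(P)-binding Rossmann-fold genes numbered close together (Eucgr.J02006, Eucgr.J02011, Eucgr.J02019 and Eucgr.J02024) rose by 2.46 to 3.08. Eucgr.J02024 had 10.06 at 30 °C and 10.20 at 10 °C with elevated CO2, 7.15 at 30 °C in ambient CO2 and 6.98 in the control. All 5 polyketide cyclase family genes and all 5 genes of the NAD(P)-linked oxidoreductase family in the table also rose, families that were picked after their values were seen.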
